A study of Mus musculus with 15 samples.

Results

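The comparison described here sets 6 medulloblastomas labelled R-type (MB7 to MB12) against 6 labelled S-type (MB1 to MB6), together 12 of the 15 arrays in the series. Each type enters as the mean of its 2 dose groups, and the members were chosen by these labels alone. Every tumour arose in the cerebellum of a Ptch1+/- mouse on a C3B6F1 background, and the mice were watched until moribund. S-type tumours came from mice given 0 Gy (MB1 to MB3) or 0.2 Gy (MB4 to MB6) of X-rays on postnatal day 1, and R-type tumours from mice given 0.2 Gy (MB7 to MB9) or 1.5 Gy (MB10 to MB12). Each of these groups held 3 tumours, each measured on 1 array. The mice were aged 128 to 173 in the S-type groups and 87 to 127 in the R-type groups, in a unit the labels leave out, so that no R-type mouse was as old as any S-type mouse. All mice were female except that of MB6. The other 3 arrays held normal cerebellum from unirradiated females aged 103 to 113, whose genotype and strain are not given. They enter only the estimate of spread and serve as a reference level. The labels do not say what R and S stand for. No S-type tumour had 1.5 Gy and no R-type tumour 0 Gy, so that the types shared a dose only at 0.2 Gy. Age cannot be told apart from type at any dose.

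Medulloblastomas of Ptch1+/- mice arise from the granule neuron precursors of the cerebellum, cells that divide in the weeks after birth under the SHH signal. Ptch1 is the receptor that holds this pathway in check, through Smo and the GLI transcription factors. The growth of these precursors and of the tumours also draws on insulin-like growth factors, and FGF, Notch, WNT, BMP and TGF-beta signals influence whether the precursors divide or mature into neurons.

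All values are log2 signals of the array less the 75th percentile of the same array, and a difference is the R-type mean less the S-type mean on this scale, tested with limma. A gene is said to be higher or lower, or to pass, where its p-value adjusted by Benjamini-Hochberg over all tested genes was under 0.05. Between 60.9 and 63.4% of probes were well above background on the R-type arrays, and between 59.1 and 66.5% on the S-type arrays. The 75th percentile used for scaling lay between 1184.4 and 1369.4 for R-type arrays, and between 1240.0 and 1614.0 for S-type arrays. Both types lay on each of the 4 array slides, and differences within slides are given as the range over these slides. The number of arrays limits the precision. The 12 tumours came from mice of 12 different ages, so the spread behind a p-value is that among the animals used. It pools the 3 normal cerebella with the tumours. With the 12 tumours only, 3340 genes passed between the types, against 4559 with all arrays. Ptch1 was lower in R-type tumours, at −3.16 to −2.71 (median −3.11) against −2.08 to −1.47 (median −1.68) in S-type tumours, a difference of −1.30 (SE 0.119, adjusted p 5.29e-05).

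Of 21661 tested genes, 4559 passed between the types (21.0%), 2378 higher in R-type tumours (11%) and 2181 lower (10.1%). At least 2-fold differences were found for 260 of the higher and 396 of the lower genes. The split between higher and lower depended on the scaling. The share of higher genes among those that passed was 52.2% as scaled here, 61.7% with the median of each array subtracted, 67.6% with another background correction (normexp) and 9.04% with no scaling. The median difference of all genes was 0.02 here, 0.09 with median scaling and −0.20 with no scaling, and family differences are read against it. The families hold only genes with a symbol, for which a closer reference is the 13424 tested genes with one. Of these 12.3% were higher and 8.02% lower, with a median of 0.05. Chromosome 13, which carries Ptch1, held 36 higher and 155 lower genes among 483 tested, with a median of −0.29. On the other chromosomes 12941 tested genes had a known place, and 1616 of them were higher (12.5%) and 922 lower (7.12%). The 6 values of one type lay wholly above or below the 6 of the other for 2023 genes (9.34%). At 0.2 Gy alone, where 3 tumours of each type shared a dose, 429 genes were higher (1.98%) and 601 lower (2.77%). Between R-type tumours at 1.5 Gy and S-type tumours at 0 Gy 1093 were higher (5.05%) and 1125 lower (5.19%). Of the 4559 genes, 4522 had the same sign in both of these dose comparisons, from whose mean the difference between the types is made. Of the 137 genes named by rule that passed between the types, 42 also passed at 0.2 Gy, 15 had less than 0.5 times their difference there and 2 of these the opposite sign.

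**Figure D1:**
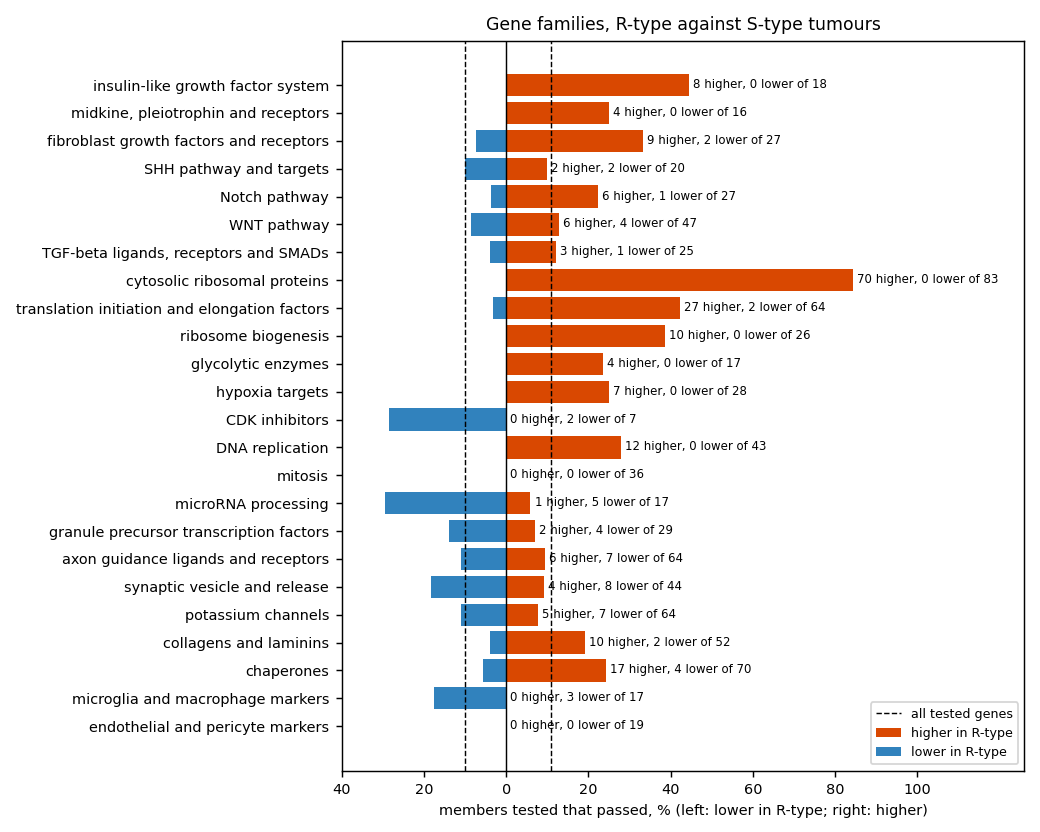
Share of the tested members of 24 gene families that were higher (right, orange) or lower (left, blue) in R-type than in S-type tumours, with the counts beside each bar. The dashed lines mark the shares over all tested genes, 11% higher and 10.1% lower. Cytosolic ribosomal proteins have the longest bar, with 70 of 83 higher.

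Of the insulin-like growth factor system, 8 of 18 tested members were higher in R-type tumours (44.4%, against 11% of all tested genes). Among them were a ligand, a receptor and 5 binding proteins. None was lower (none at an unadjusted p under 0.05 with limma either). The median difference was 0.47 against 0.02 over all genes. The ligand Igf2, an imprinted gene, ranged from 0.51 to 4.45 (median 2.46) in R-type and from −0.66 to 2.00 (median 0.96) in S-type tumours. The difference was 1.65 (SE 0.439, adjusted p 0.0215). The R-type tumours at 0.2 Gy stood apart from all others, with 4.45 in MB7, 3.13 in MB8 and 4.19 in MB9, while those at 1.5 Gy, with 1.80 in MB10, 0.51 in MB11 and 1.11 in MB12, lay within the range of the S-type tumours. The difference was 2.87 at 0.2 Gy (adjusted p 0.0257) and 0.43 between R-type at 1.5 Gy and S-type at 0 Gy (adjusted p 0.695). Whether the 2 dose comparisons differ was not tested for Igf2 or for any other gene. The adjusted p for Igf2 was 0.0524 without MB9 and 0.124 when dose was ignored in the fit.

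Igf1r, the tyrosine kinase receptor that IGF1 and IGF2 signal through, was higher by 0.46 (SE 0.082, adjusted p 0.00302), at 1.74 to 2.27 in R-type and 1.26 to 1.92 in S-type tumours. The difference was 0.11 at 0.2 Gy (adjusted p 0.632) and 0.81 between R-type at 1.5 Gy and S-type at 0 Gy (adjusted p 0.00194). Of the secreted proteins that bind these ligands, Igfbp2 was higher by 0.95 (adjusted p 0.0183), with R-type values of 1.53 to 2.84 all above the S-type values of 0.48 to 1.47. Igfbp7 was higher by 0.48 (adjusted p 0.0203), again without overlap, Igfbp4 by 0.73 (adjusted p 0.0161) and Igfbp3 by 0.66 (adjusted p 0.0198). Igfbp2, Igfbp3, Igfbp4 and Igfbp7 were also positive within every slide, though as little as 0.07 to 0.20 on the slide with the smallest difference. Igfbp1 (1.66, adjusted p 0.0339) was well above background in all 6 R-type tumours and in 1 S-type tumour, so that the fitted difference has no exact size.

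Igf2bp3, an RNA-binding protein of the embryo and of tumours that binds the Igf2 transcript, was well above background in all 6 R-type tumours and in 1 S-type tumour. Its R-type values ran from −5.01 to −1.54 (median −4.04). The S-type value was −3.70 in MB3 and −8.25 to −7.09 in the other 5, at background level, so that the fitted difference of 3.24 (SE 0.714, adjusted p 0.00894) has no exact size. It was negative on the slide that held MB3, where the range over slides was −1.30 to 6.17. Not passing were Igf1 (−0.31), the insulin receptor gene Insr (0.10) and Igf2r (0.48, adjusted p 0.0837), which encodes the receptor that takes up IGF2 for degradation. With no scaling 3 members were higher and 1 lower, with a median of 0.25 against −0.20 over all genes.

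Midkine, a heparin-binding growth factor of the embryonic nervous system encoded by Mdk, was higher by 2.54 (SE 0.542, adjusted p 0.00767). All 6 R-type values (4.35 to 5.16, median 4.90) lay above all S-type values (0.00 to 3.5, median 2.86), and the normal cerebella lay at 1.85 to 2.00. The S-type tumours were widely spread, from 0.00 in MB2 and 1.27 in MB6 to 3.5 in MB4, whereas the R-type tumours lay within a range of less than 1 log2 unit. Within slides the difference was 1.48 to 3.71. It was 2.63 at 0.2 Gy (adjusted p 0.0735) and 2.455 between R-type at 1.5 Gy and S-type at 0 Gy (adjusted p 0.0638), so that neither passed alone. The receptor gene Alk (0.59, adjusted p 0.0259), the syndecan gene Sdc3 (0.66, adjusted p 0.04) and Ncl (0.21, adjusted p 0.0406), whose protein nucleolin binds midkine at the cell surface, were higher too. Pleiotrophin, the related ligand encoded by Ptn, did not pass (0.28). In all, 4 of 16 tested members of this list were higher (25%, against 11% of all tested genes) and none was lower. Without MB5 or MB8 only 1 was higher, and without MB9, MB10 or MB11 2 were. The nearest 2 genes on each side of Mdk on chromosome 2, Ambra1, Chrm4, Dgkz and Creb3l1, did not pass (−0.27 to 0.08), and of those farther off Atg13 (−0.22, adjusted p 0.0342) and Phf21a (−0.19, adjusted p 0.0326) were lower.

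Of the fibroblast growth factors, their receptors and feedback inhibitors, 9 of 27 tested genes were higher in R-type tumours (33.3%) and 2 lower (7.41%). The median was 0.18. Of all tested genes 11% were higher and 10.1% lower. Fgf8, the ligand that patterns the midbrain and hindbrain from the isthmus, was higher by 1.54 (SE 0.203, adjusted p 0.000593). Its R-type values (−1.45 to −0.55, median −1.07) did not overlap the S-type values (−3.06 to −1.77, median −2.53), and the difference was 1.38 at 0.2 Gy (adjusted p 0.023) and 1.71 between the other dose groups (adjusted p 0.00431). Fgf5 was higher by 2.68 (SE 0.366, adjusted p 0.000741), with R-type values of 0.22 to 3.08 and S-type values of −1.86 to 0.32. The S-type tumour MB3, at 0.32, was the only one to reach the lowest R-type tumour, MB11. The R-type tumours at 0.2 Gy held the 3 highest values of Fgf5, 2.84 in MB7, 1.78 in MB8 and 3.08 in MB9.

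Fgf9 (0.28, adjusted p 0.0162) and Fgf11 (0.40, adjusted p 0.0376, well above background in 5 R-type and 4 S-type tumours) were the other ligand genes that were higher. Among the receptors, Fgfr1 was higher by 0.49 (adjusted p 0.0156) and Fgfr3 by 0.31 (adjusted p 0.0358), while Fgfr2 (−0.16) and Fgfr4 (−0.57) did not pass. Fgfr1 stood at 0.13 at 0.2 Gy (adjusted p 0.705) and at 0.85 between the other dose groups (adjusted p 0.0105). Dusp6, a phosphatase that acts on ERK and is induced by FGF signals, was higher by 0.50 (SE 0.088, adjusted p 0.00289), with R-type values of 3.93 to 4.40 above S-type values of 3.26 to 3.92, and by 0.24 at 0.2 Gy (adjusted p 0.28). The feedback inhibitors Spred1 (0.35, adjusted p 0.0179) and Spry2 (0.31, adjusted p 0.048) were higher, and Spry1 (0.05) did not pass. Kl, which encodes the klotho co-receptor and is strongly expressed in choroid plexus, was lower (−2.49, adjusted p 0.0141). It was well above background in 6 S-type and 2 R-type tumours, so that the fitted difference has no exact size. Fgf10, on chromosome 13, passed as lower too (adjusted p 0.0378). It was well above background in 2 S-type tumours only, so no size is given. Without any 1 tumour other than MB2 or MB5 only 1 gene of the list was lower. The median of the list was −0.04 with no scaling, where 3 genes were higher and 3 lower. Fgf11, Fgfr3, Spred1, Spry2, Fgf10 and Igfbp1 fall outside the rule for naming genes and were picked with their values known.

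**Figure D2:**
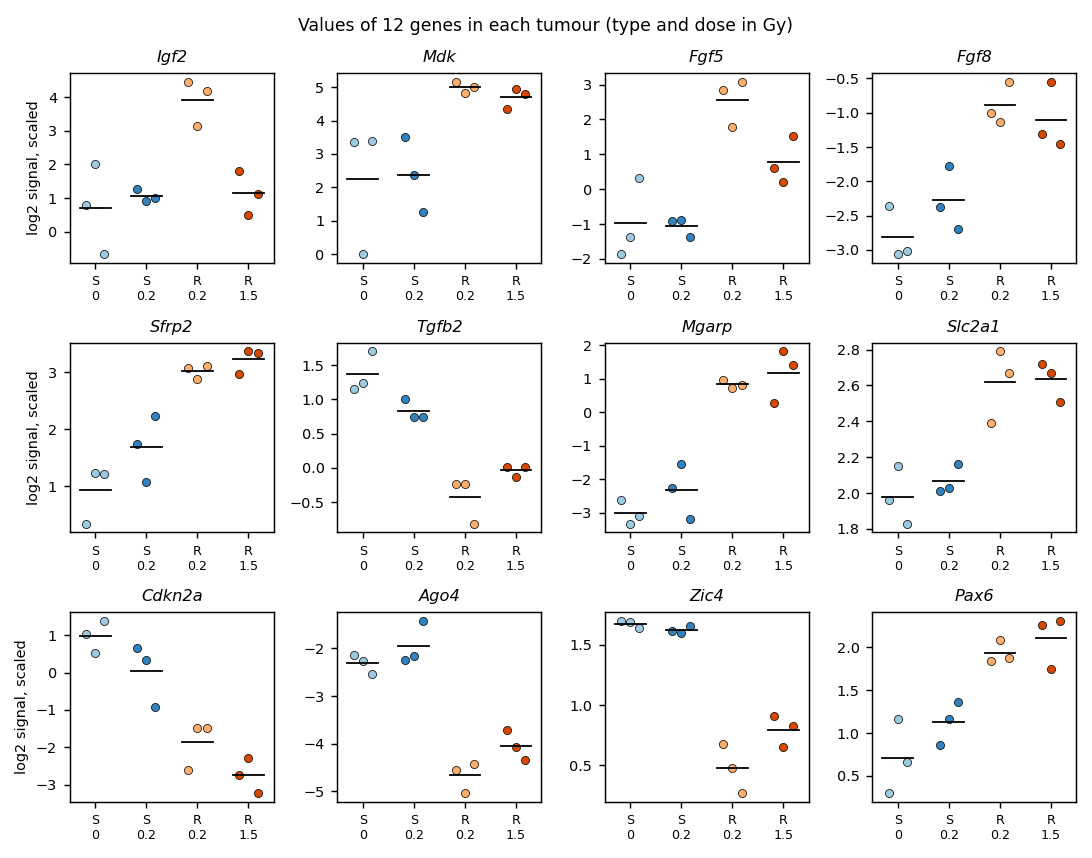
Log2 signal, scaled to the 75th percentile of each array, of 12 genes in each tumour, by type (S, R) and dose in Gy. Points are tumours and bars are means of 3. The R-type tumours lie above the S-type tumours without overlap for Mdk, Fgf8, Sfrp2, Mgarp, Slc2a1 and Pax6 and below them for Tgfb2, Cdkn2a, Ago4 and Zic4, while Igf2 and Fgf5 are highest in R-type tumours at 0.2 Gy.

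Of 20 tested members of the SHH pathway 2 were higher (10%) and 2 lower (10%), one of them Ptch1, near the 11% and 10.1% of all tested genes, with a median of 0.06. Gli1, the transcription factor and target by which pathway activity is often read, was at −0.78 to −0.06 in R-type and −1.15 to −0.36 in S-type tumours (0.25, SE 0.154, adjusted p 0.27). Mycn, another target, was at 4.56 to 4.98 and 4.55 to 4.76 (0.14, adjusted p 0.147). Both lay far above normal cerebellum, whose means were −3.93 for Gli1 and −1.59 for Mycn. The members that passed were Hhip (0.84, adjusted p 0.0242), which binds hedgehog ligands and whose other probe stood at −0.05, Sfrp1 (0.46, adjusted p 0.0128), the Polycomb gene Bmi1 (−0.29, adjusted p 0.0454) and Ptch1. Sfrp1 stood at −0.03 at 0.2 Gy (adjusted p 0.936). Without MB6, MB9 or MB12 1 gene was higher, and without any 1 tumour other than MB2, MB7 or MB10 1 was lower.

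In the Notch pathway 6 of 27 tested genes were higher (22.2%) and 1 lower (3.7%), with a median of 0.12. The shares were 11% and 10.1% over all tested genes. Mfng, a glycosyltransferase that modifies Notch receptors, was lower by 1.17 (log2 difference −1.17, SE 0.177, adjusted p 0.00125), at 0.00 to 0.78 in R-type and 0.65 to 2.53 in S-type tumours. The ligand gene Dll3 was higher by 1.78 (SE 0.393, adjusted p 0.00921), at 1.21 to 3.33 against −0.53 to 1.76, with a range of −0.02 to 3.25 within slides. The target gene Hey1 (0.52, adjusted p 0.00249), the nuclear effector gene Rbpj (0.34, adjusted p 0.0129), the co-activator gene Maml1 (0.23, adjusted p 0.0273) and the receptor gene Notch3 (0.55, adjusted p 0.042) were higher. Hey1 stood at 0.16 at 0.2 Gy (adjusted p 0.512) and at 0.89 between the other dose groups (adjusted p 0.00193). Hes3 passed as higher (adjusted p 0.0457) without signal well above background in any tumour, so no size is given. Notch1 (−0.20), Notch2 (0.27), Jag1 (0.29) and Hes5 (−0.27) did not pass. Without MB2, MB4, MB7, MB9 or MB11 the number higher was 3, without MB3, MB8 or MB11 2 were lower, and with no scaling 2 were higher and 3 lower.

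Of 47 tested WNT genes 6 were higher (12.8%) and 4 lower (8.51%), near the 11% and 10.1% of all tested genes, with a median of 0.05. Sfrp2, a secreted protein that binds WNT ligands, was higher by 1.81 (SE 0.219, adjusted p 0.000337), at 2.88 to 3.37 (median 3.09) in R-type and 0.35 to 2.24 (median 1.23) in S-type tumours, and by 1.25 to 2.41 within slides. The co-receptor gene Lrp5 (0.50, adjusted p 0.00368), the nuclear factor gene Tcf7l2 (0.86, adjusted p 0.00706) and Lgr4 (0.40, adjusted p 0.00823) were higher, though the probes of Lgr4 ranged from −0.63 to 0.72 and Lrp5 stood at 0.16 at 0.2 Gy (adjusted p 0.499). Nkd1, an inhibitor of WNT signalling, was lower (−0.56, adjusted p 0.0015), without overlap. Axin2, the target most often used to read the pathway, did not pass (0.02, SE 0.11), nor did Lef1 (0.35). Without MB1 10 genes were higher.

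Of the TGF-beta ligands, receptors and SMADs, 3 of 25 tested genes were higher (12%, against 11% of all tested genes) and 1 lower (4%), with a median of 0.07, and without MB1 5 were higher. The 2 ligand genes that passed moved in opposite directions. Tgfb2 was lower (−1.33, SE 0.13, adjusted p 7.68e-05), at −0.81 to 0.02 in R-type and 0.74 to 1.70 in S-type tumours, while Tgfb3 was higher (0.93, SE 0.123, adjusted p 0.000626), at 0.13 to 0.65 and −1.06 to −0.03. Neither pair of ranges overlapped. Tgfb1 stood at 0.02 and did not pass. The receptor gene Tgfbr1 was higher by 0.59 (adjusted p 0.032), and so was the effector gene Smad3 (0.64, SE 0.081, adjusted p 0.000466), whose difference was 0.14 at 0.2 Gy (adjusted p 0.51) and 1.15 between the other dose groups (adjusted p 0.000277).

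Among the 7 tested inhibitors of cyclin-dependent kinases, the neighbours Cdkn2a and Cdkn2b on chromosome 4 were lower in R-type tumours and none was higher. These 2 are 28.6% of the list, against 10.1% lower over all tested genes. Cdkn2a encodes p16INK4A, which inhibits the kinases CDK4 and CDK6, and p19ARF, which stabilises p53, and Cdkn2b encodes p15INK4B. Cdkn2a lay between −3.22 and −1.47 (median −2.45) in R-type tumours and between −0.91 and 1.38 (median 0.59) in S-type tumours. The difference was −2.80 (SE 0.297, adjusted p 0.000134), −1.88 at 0.2 Gy (adjusted p 0.0286) and −3.72 between R-type at 1.5 Gy and S-type at 0 Gy (adjusted p 0.000545). In normal cerebellum it was at −7.81 to −7.71 and well above background on no array, so that no exact level is known there. The R-type tumours lay between this background level and the S-type tumours. Cdkn2b lay between −0.02 and 1.17 in R-type and between 1.15 and 2.00 in S-type tumours (−1.07, SE 0.174, adjusted p 0.00189). The R-type tumours MB8 (1.17) and MB9 (1.16) reached the S-type tumour MB6 (1.15).

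The next gene along the chromosome, Dmrta1, a transcription factor gene of the DMRT family, was also lower (at least 2.23-fold, adjusted p 0.00614) and was well above background in all 6 S-type tumours and in no R-type tumour. On the other side of Cdkn2a, Mtap (−0.23, adjusted p 0.0939) did not pass, and beyond Dmrta1 neither did Elavl2 (0.15) or Tusc1 (−0.22). Cdkn1a (0.23), a p53 target, Cdkn1b (−0.02), Cdkn1c (0.51, adjusted p 0.19), Cdkn2c (−0.16) and Cdkn2d (−0.02) did not pass. The neighbours given here and for other genes were looked up after the differences were known. Over all tested genes of chromosome 4 the median was 0.05, with 125 of 833 genes higher and 55 lower.

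**Figure D3:**
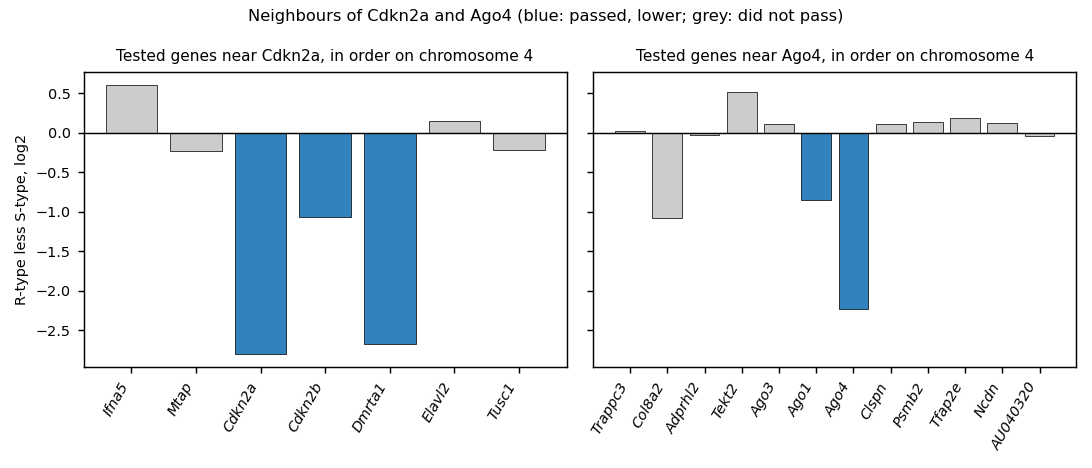
Difference between R-type and S-type tumours (log2) for the tested genes around Cdkn2a (left) and Ago4 (right), in their order on chromosome 4. Blue bars passed and were lower, grey bars did not pass. Cdkn2a, Cdkn2b and Dmrta1 stand side by side at −2.80, −1.07 and, as fitted, −2.68, and Ago1 and Ago4 at −0.85 and −2.23, beside neighbours that did not pass.

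DNA replication genes were higher in R-type tumours in 12 of 43 cases (27.9%, against 11% of all tested genes) and lower in none. Their median was 0.21, while none of 36 mitosis genes passed (median 0.06). At an unadjusted p under 0.05 limma gave 2 mitosis genes higher and none lower, against 22 and none of the replication genes. Rfc1, the large subunit of the clamp loader, was higher by 0.59 (SE 0.099, adjusted p 0.00217), at 3.45 to 3.72 against 2.70 to 3.27. The uracil glycosylase gene Ung was higher by 0.41 (adjusted p 0.0072), the DNA polymerase delta genes Pold1, Pold2 and Pold3 by 0.26 to 0.37 (adjusted p 0.00782 to 0.0231) and Gins2, part of the replicative helicase, by 0.46 (adjusted p 0.0101). Without 1 tumour the number higher was 4 (MB6), 6 (MB8 or MB9), 7 (MB5 or MB11) or 19 (MB3), with no scaling 1 was higher and 3 lower, and with the slide as a block 5 were higher. At 0.2 Gy alone none passed (median 0.16). The list mean was −0.07 to 0.41 within slides.

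Genes that respond to low oxygen were higher in 7 of 28 cases (25%, against 11% of all tested genes) and lower in none. Their median was 0.34, and 26 of the 28 differences were above 0. Mgarp, a mitochondrial protein gene induced by the hypoxia-inducible factors (HIF), had the largest difference of all named genes off chromosome 13 that were well above background in all 12 tumours, 3.68 (SE 0.302, adjusted p 2.63e-05). It lay between 0.28 and 1.82 in R-type tumours and between −3.32 and −1.55 in S-type tumours, and at −2.61 to −1.91 in normal cerebellum. The difference was 3.18 at 0.2 Gy (adjusted p 0.00202) and 4.18 between the other dose groups (adjusted p 0.000283). Its nearest neighbours Elf2 (0.08) and Ndufc1 (−0.02) did not pass, while Naa15 (0.26, adjusted p 0.0145) and Setd7 (0.21, adjusted p 0.0494), farther along, were higher. Slc2a1, the glucose transporter GLUT1, was higher by 0.60 (SE 0.085, adjusted p 0.000891), with R-type values of 2.39 to 2.79 above S-type values of 1.83 to 2.16. Car9, the carbonic anhydrase that exports acid, was higher by 0.79 (SE 0.127, adjusted p 0.00166), at −3.40 to −2.67 against −4.10 to −3.65. Selenbp1 (0.84, adjusted p 0.00117), Stc2 (1.27, adjusted p 0.00706), the glycolysis regulator Pfkfb3 (0.63, adjusted p 0.0116) and the oxygen sensor Egln1 (0.26, adjusted p 0.0371) completed the 7. Vegfa (0.70, adjusted p 0.0707), Adm (0.98, adjusted p 0.0642), Egln3 (1.00, adjusted p 0.0867) and Bnip3 (0.60, adjusted p 0.143), all textbook targets of HIF, did not pass.

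HIF binds DNA at a core of the letters ACGTG or GCGTG. Only ACGTG was searched for, and it alone is called the core below. The sequence before the start of 4 of these genes is shown, with each ACGTG, on either strand, in capitals. The stretches are 250 bases long and run up to the start site, in the direction of the gene, from RefSeq on GRCm38.p6. They lie at chr4:119108495-119108744 (plus strand) for Slc2a1, chr4:43506776-43507025 (plus) for Car9, chr3:51396548-51396797 (minus) for Mgarp and chr7:46845554-46845803 (plus) for Ldha, the lactate dehydrogenase gene described with the glycolytic enzymes.
Slc2a1: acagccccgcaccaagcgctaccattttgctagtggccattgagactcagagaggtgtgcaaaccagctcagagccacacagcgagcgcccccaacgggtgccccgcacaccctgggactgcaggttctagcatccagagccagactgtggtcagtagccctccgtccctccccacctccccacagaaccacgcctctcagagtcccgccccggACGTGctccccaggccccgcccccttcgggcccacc
Car9: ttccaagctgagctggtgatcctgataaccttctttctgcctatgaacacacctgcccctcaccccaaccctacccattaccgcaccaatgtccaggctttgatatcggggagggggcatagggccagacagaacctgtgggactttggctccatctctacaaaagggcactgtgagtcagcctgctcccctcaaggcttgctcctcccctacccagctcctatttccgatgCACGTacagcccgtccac
Mgarp: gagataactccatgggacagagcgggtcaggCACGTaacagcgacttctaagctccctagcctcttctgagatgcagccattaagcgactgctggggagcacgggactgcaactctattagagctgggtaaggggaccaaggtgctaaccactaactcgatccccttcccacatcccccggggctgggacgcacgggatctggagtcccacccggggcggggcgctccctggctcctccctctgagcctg
Ldha: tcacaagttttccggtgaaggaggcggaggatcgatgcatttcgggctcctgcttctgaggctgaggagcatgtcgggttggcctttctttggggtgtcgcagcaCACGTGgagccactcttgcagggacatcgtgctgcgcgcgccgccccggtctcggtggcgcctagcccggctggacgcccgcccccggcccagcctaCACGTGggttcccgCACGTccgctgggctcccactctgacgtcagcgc
The core begins 36 bases before the start in Slc2a1, 18 in Car9 and 219 in Mgarp. Before the Ldha start shown it is found at 3 places, 2 of them as CACGTG, which holds it on both strands and counts as 2 matches. The stretch before another Ldha start, at chr7:46846832-46847081 (plus), is not shown and held no ACGTG. In windows of 300 bases, from 250 before to 50 after the start, the core was found in 6447 of 32851 RefSeq windows (19.6%), or for 5886 of 27025 genes with any window (21.8%). Of the 28 hypoxia genes 24 had a window, and 18 of them (75%) held the core, including 6 of the 7 higher genes, the exception being Stc2. The list was made of genes known as HIF targets, and a match is not a shown binding site. A gene without ACGTG may still hold GCGTG, which was not counted.

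The glycolytic enzymes had a median of 0.36, and 4 of 17 were higher (23.5%, against 11% of all tested genes) and none lower. Tpi1 was higher by 0.84 (SE 0.133, adjusted p 0.00157), at 4.19 to 4.78 against 2.97 to 3.84, Ldha by 0.59 (adjusted p 0.0386), Aldoa by 0.54 (adjusted p 0.0213) and Eno1 by 0.53 (adjusted p 0.0277). Pgk1 (0.46), Gapdh (0.39) and Hk2 (0.42) had differences of like size that did not pass, and Eno2 (−0.84), the form of neurons, and Pfkp (−0.41) lay below 0. Of the 17 genes 10 held the ACGTG core in a window (58.8%), among them Ldha and Aldoa but not Tpi1 or Eno1. The number higher was 1 without MB11 and 2 without MB6 or MB8. It was 2 with quantile normalization and 1 with no scaling, where the list median was 0.14. The list mean was 4.42 to 4.47 in normal cerebellum, 2.98 to 3.21 in R-type and 2.52 to 2.99 in S-type tumours. Ldha went against this order, with a normal mean of 4.13 below every R-type (5.42 to 6.32) and every S-type tumour (4.76 to 5.55), and Eno1, with a normal mean of 1.02, lay within the R-type range. Of the endothelial and pericyte markers, which follow the blood vessels of a tumour, none of 19 passed, 18 differences lay above 0 and the median was 0.30. At an unadjusted p under 0.05 limma gave 5 higher and none lower, and without MB1 8 passed as higher, and without MB3 1 as lower. Their part in the hypoxia and glycolysis differences was not tested. In these bulk samples fewer cells of a type and less RNA per cell cannot be told apart.

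**Figure D4:**
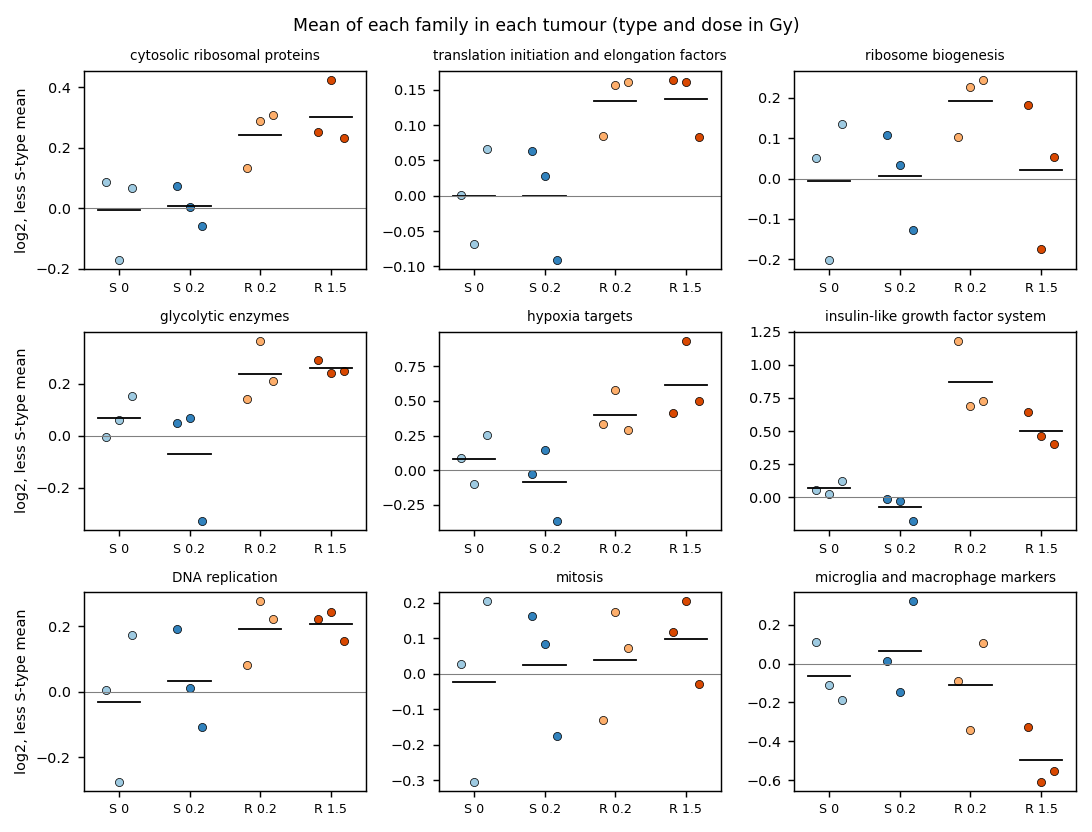
Mean log2 signal of 9 families in each tumour, less the mean of the 6 S-type tumours, by type and dose in Gy. Points are tumours and bars are means of 3. The list means of R-type tumours lie above all S-type tumours for ribosomal proteins, translation factors, hypoxia targets and the insulin-like growth factor system, and overlap them for ribosome biogenesis, glycolytic enzymes, DNA replication, mitosis and microglia.

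Cytosolic ribosomal proteins had the highest share of higher genes of the 72 lists counted. Of 83 tested genes for proteins of the cytosolic ribosome 70 were higher (84.3%, against 11% of all tested genes) and none lower, with a median of 0.29. For 41 of the 83 the types did not overlap, as for 9.34% of all tested genes. The largest, Rps15, was higher by 0.48 (SE 0.077, adjusted p 0.00168), at 4.19 to 4.59 against 3.66 to 3.99. Rpl35 (0.38, SE 0.056, adjusted p 0.00107), Rpl36 (0.39), Rpl18 (0.38), Rpl17 (0.36) and Rpl23 (0.33) were higher as well, each without overlap. The mean over the 83 genes was 5.99 to 6.28 in R-type tumours, 5.69 to 5.95 in S-type tumours and 4.47 to 4.59 in normal cerebellum. Within slides the mean difference was 0.11 to 0.37. Between 53 (without MB9) and 73 genes were higher when 1 tumour was left out. At 0.2 Gy alone 4 passed, with a median of 0.25, and between the other dose groups 34 passed, with a median of 0.31. The difference is small, and the number that passed depended on the scaling. With median scaling 62 were higher and none lower, with a median of 0.35 against 0.09 over all genes. With no scaling 2 were higher and 2 lower, with a median of 0.06 against −0.20. With quantile normalization 25 were higher, with a median of 0.09 against 0.01. Of these only quantile normalization brought the list median near that of all genes. These genes are among the brightest on the array, 78 of the 83 being among the 2166 brightest. Of those 2166 genes 417 were higher (19.3%) and 84 lower, with a median of 0.09. Of the next brightest 2166 genes 283 were higher (13.1%) and 153 lower, and of the 2167 dimmest 98 (4.52%) and 211. Other lists are bright too. The means of the translation factor, DNA replication, mitochondrial ribosome and proteasome lists were 2.24 to 3.10 in the tumours, above the lowest level of those next brightest genes (1.80).

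Many transcripts of the translation machinery start with a C that opens a run of pyrimidines (C or T), the element through which mTOR controls their use by ribosomes. As a description, the 30 bases from 10 before the start site are shown for Rpl35 (chr2:39005112-39005141, minus strand), Rpl18 (chr7:45718061-45718090, plus) and Rpl15 (chr14:18270967-18270996, minus), in which a C within 3 bases of the start begins a stretch of at least 5 pyrimidines. Capitals mark the stretch from the first such C on, and in Rpl35 and Rpl15 further pyrimidines precede it. Rpl23 (chr11:97782420-97782449, minus) has no such stretch.
Rpl35: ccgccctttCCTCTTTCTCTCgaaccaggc
Rpl18: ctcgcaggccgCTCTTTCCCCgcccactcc
Rpl15: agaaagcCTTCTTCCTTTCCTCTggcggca
Rpl23: gtccggtcacgtggctgagtgggcggggcc
All are from RefSeq on GRCm38.p6. Such a stretch was found for 26 of the 62 ribosomal protein genes with a window (41.9%) and for 3651 of all 27025 genes (13.5%). Of the 53 genes with a window that were higher in R-type tumours 20 had one (37.7%).

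The factors that start and extend translation, listed with the kinases that act on them, were higher in 27 of 64 cases (42.2%) and lower in 2 (3.12%). Their median was 0.18. Of all tested genes 11% were higher and 10.1% lower. Eif3e, a subunit of initiation factor 3, was higher by 0.42 (SE 0.06, adjusted p 0.000955), Eif2s3x, a subunit of initiation factor 2, by 0.51 (SE 0.076, adjusted p 0.00113) and the helicase gene Eif4a1 by 0.34 (adjusted p 0.00514), each without overlap. Eef1d, an exchange factor in elongation, was higher by 0.41 (adjusted p 0.00323), but its probes ranged from −0.18 to 0.41. Eif2ak2, the kinase PKR that shuts down initiation on double-stranded RNA, was higher by 0.71 (adjusted p 0.00383). The 2 lower genes, named because of their direction, were Eef1a2 (−1.28, adjusted p 0.0198), the elongation factor form of neurons and muscle, and Eif5 (−0.37, adjusted p 0.00727). In ribosome assembly 10 of 26 genes were higher (38.5%) and none lower (median 0.20). They were led by Nop58 (0.38, adjusted p 0.00473), Wdr12 (0.28, adjusted p 0.00551) and Utp4 (0.30, adjusted p 0.00963), each without overlap. The translation factor count was 15 without MB9, 16 without MB6 and 17 without MB11, and that of ribosome assembly was 3 without MB9, 4 without MB11, 5 without MB2 or MB6 and 6 without MB8 or MB10. With no scaling 2 translation factors were higher and 8 lower, and no ribosome assembly gene was higher and 2 were lower.

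Of the 5 lower genes among those that make and use microRNAs, 3 were Argonautes, the proteins that hold a microRNA on its target. Of the 17 tested genes 5 were lower (29.4%) and 1 higher (5.88%), with a median of 0.01. The shares were 10.1% and 11% over all tested genes. Ago4 was lower by 2.23 (log2 difference −2.23, SE 0.167, adjusted p 1.38e-05), at −5.04 to −3.71 (median −4.39) in R-type and −2.53 to −1.42 (median −2.20) in S-type tumours. The difference was −2.28 to −1.87 within slides, −2.73 at 0.2 Gy (adjusted p 0.000125) and −1.74 between the other dose groups (adjusted p 0.00148). Of the 3 probes of Ago4, 1 differed in sign, at 0.16. Ago1, which lies next to Ago4, passed at −0.85 (adjusted p 0.0135) but was well above background in only 2 R-type and 5 S-type tumours. Ago3, on the other side of Ago1, did not pass (0.11), nor did Clspn (0.10), the neighbour beyond Ago4. Ago2, on chromosome 15 and the Argonaute known for cutting its target, was lower by a small but separate amount (−0.34, SE 0.059, adjusted p 0.00244), at −0.64 to −0.32 against −0.17 to −0.02. Prkra (−0.23, adjusted p 0.0237) and Dicer1 (−0.20, adjusted p 0.0408) were also lower, although the 2 probes of Dicer1 passed in opposite directions and Dicer1 stood at −0.06 at 0.2 Gy (adjusted p 0.738), and Drosha was higher (0.17, adjusted p 0.0383). Without MB6, MB9 or MB11 3 genes were lower, and the number higher was 2 without MB3 and 0 without any 1 of the others except MB6 and MB12.

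The transcription factors of granule neuron precursors included 4 lower (13.8%) and 2 higher genes (6.9%) among 29 tested, with a median of 0.03. Of all tested genes 10.1% were lower and 11% higher. Zic4, a zinc finger factor of the early cerebellum, was lower (−1.01, SE 0.079, adjusted p 1.92e-05), with S-type values held within 1.60 to 1.70 and R-type values at 0.27 to 0.91. Its neighbour and relative Zic1 did not pass (−0.03, SE 0.075). Pax6 was higher by 1.10 (SE 0.151, adjusted p 0.000777), at 1.75 to 2.31 against 0.30 to 1.36, and by 0.99 to 1.26 within slides. Sox4, on chromosome 13, was lower by 1.10 (log2 difference −1.10, adjusted p 0.00131), and Barhl1 was lower (−0.51, adjusted p 0.00639), both without overlap, and Zic2 passed too (−0.28, adjusted p 0.0288). The sign of Zic2 turned with the dose groups, at 0.19 at 0.2 Gy (adjusted p 0.349) and −0.76 between the other dose groups (adjusted p 0.00242). Tlx3 was higher by 1.36 (adjusted p 0.00092), but by 0.40 at 0.2 Gy (adjusted p 0.418) and 2.32 between the other dose groups (adjusted p 0.000687). Atoh1, the factor that defines these precursors, did not pass (−0.52, adjusted p 0.16), and Myc, which is not in this list, was lower (−0.37, adjusted p 0.0375).

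Of 64 axon guidance genes 6 were higher (9.38%) and 7 lower (10.9%), with a median of 0.01. The shares were 11% and 10.1% over all tested genes, and 12.3% and 8.02% over those with a symbol. The secreted semaphorin gene Sema3e was lower by 1.44 (log2 difference −1.44, SE 0.221, adjusted p 0.00135), at 0.37 to 2.02 against 2.61 to 2.98, and its class 4 relative Sema4a was higher by 0.82 (SE 0.125, adjusted p 0.00131), at −1.19 to −0.86 against −2.15 to −1.41. The semaphorin co-receptor gene Nrp2 (−0.63, adjusted p 0.00706), the ephrin gene Efnb3 (−0.74, adjusted p 0.00875) and the receptor gene Ephb2 (−0.34, adjusted p 0.0145) were lower, and the netrin receptor gene Unc5b, outside the rule for naming, was higher (1.15, adjusted p 0.0223). Nrp2 stood at −0.17 at 0.2 Gy (adjusted p 0.633). Without MB9 3 genes of the list were higher.

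Of 44 genes of synaptic vesicles and their release 8 were lower (18.2%) and 4 higher (9.09%), with a median of −0.12. Of all tested genes 10.1% were lower and 11% higher. Unc13b, which primes vesicles, was lower (−0.68, SE 0.102, adjusted p 0.00127), and so were Nsf (−0.40, adjusted p 0.00719) and Cplx2 on chromosome 13 (−0.84, adjusted p 0.00885). Nsf stood at −0.16 at 0.2 Gy (adjusted p 0.464). Syt12 (0.76, adjusted p 0.00174) and Sypl (0.40, adjusted p 0.00365) were higher without overlap. The vesicle calcium sensor gene Syt4 passed (−2.19, adjusted p 0.00823), with −0.32 at 0.2 Gy (adjusted p 0.818) and −4.06 between the other dose groups (adjusted p 0.00391). The number lower was 4 without MB7 or MB11 and 5 without MB5, MB6, MB8, MB9 or MB10, and the number higher was 2 without MB9, MB10 or MB11 and 7 without MB2. The 16 markers of mature granule neurons had a median of −0.54, with 3 lower and 1 higher, and a difference of −0.99 to 0.19 within slides, and their part in the synaptic differences was not tested. The S-type tumour MB2 stood above all other tumours for these lists: its mean was 0.74 for the granule neuron markers (others −2.37 to −0.84), −0.50 for the synaptic genes (others −1.62 to −1.07) and −2.98 for the potassium channels described next (others −3.86 to −3.30). Without MB2 2 granule neuron markers were lower and 3 higher, and the number lower was 1 without MB5, MB7, MB8, MB9 or MB11 and 5 without MB3. Among 64 potassium channel genes 5 were higher (7.81%) and 7 lower (10.9%). The shares were 11% and 10.1% of all tested genes and 12.3% and 8.02% of those with a symbol. Kcne1, an auxiliary subunit, was at least 2.08-fold higher (adjusted p 0.000844) and was well above background in all R-type and no S-type tumours. Kcnn4, a calcium-activated channel, was higher by 1.31 (adjusted p 0.00215), and Kcnip3 was lower (−0.75, adjusted p 0.00114), both without overlap. Kcnn4 stood at 0.58 at 0.2 Gy (adjusted p 0.293) and at 2.03 between the other dose groups (adjusted p 0.00256). Kcnma1 was lower too (adjusted p 0.00249), with signal well above background in 3 R-type tumours.

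In the extracellular matrix 10 of 52 genes for collagens, laminins and large proteoglycans were higher (19.2%) and 2 lower (3.85%), with a median of 0.29. The shares were 11% and 10.1% over all tested genes. Vcan, the proteoglycan versican, on chromosome 13, was higher by 0.94 (SE 0.183, adjusted p 0.00485), against the direction of most chromosome 13 genes that passed. Col9a3 (0.66, adjusted p 0.0101) and the basement membrane genes Col4a4 (0.56, adjusted p 0.00958), Col4a6 (0.80, adjusted p 0.0222) and Lamb2 (0.63, adjusted p 0.0293) were higher and Lama1 was lower (−0.92, adjusted p 0.00937). Col4a1 (0.49, adjusted p 0.111) and Col4a2 (0.51, adjusted p 0.0946), the main vessel collagens, did not pass. The count of higher genes was 4 without MB4, MB9 or MB11, 5 without MB5 and 6 without MB3 or MB6. Without any 1 tumour other than MB3, MB7 or MB11 1 gene was lower. Of the markers of meninges and fibroblasts, a source of such matrix, 2 of 15 were higher (13.3%), near the 11% of all tested genes. Their median was 0.05, with 8 differences above 0 and 7 below, and their part was not tested.

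Chaperone genes were higher in 17 of 70 cases (24.3%) and lower in 4 (5.71%), with a median of 0.12. The shares were 11% and 10.1% over all tested genes. The cytosolic folding machine subunit Cct4 was higher by 0.31 (SE 0.054, adjusted p 0.0027), and the mitochondrial co-chaperones Dnajc19 and Dnajc15 by 0.39 and 0.84 (adjusted p 0.00517 and 0.00365). Dnaja4 was lower (−1.68, SE 0.183, adjusted p 0.000164), at −3.85 to −2.53 against −1.57 to −1.14, and by −1.77 to −1.48 within slides. The heat shock genes Hspa1a (1.45, adjusted p 0.00656) and Hspa1b (1.38, adjusted p 0.00552), near-identical copies that an array may not part, were higher. They ranged from −0.36 to 2.09 and from −0.30 to 1.86 within slides. Without MB5, MB9 or MB11 11 genes were higher, and with no scaling 4 were higher and 16 lower.

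Markers of microglia and macrophages were lower in 3 of 17 cases (17.6%) and higher in none. Of all tested genes 10.1% were lower and 11% higher. Of the 17 differences 16 were below 0 (median −0.26). Cx3cr1 (−0.45, adjusted p 0.00234), Laptm5 (−0.60, adjusted p 0.00466) and P2ry12 (−0.62, adjusted p 0.0263) passed, each with overlapping values. The list mean was −0.16 to 0.56 in R-type, 0.26 to 0.77 in S-type tumours and −1.92 to −1.50 in normal cerebellum, and 16 of 17 markers were well above background in all R-type and 17 in all S-type tumours. Markers of oligodendrocytes (1 of 16 higher, none lower), Purkinje cells (1 of 12 lower) and lymphocytes (none of 6, and none at an unadjusted p under 0.05 with limma) held few genes that passed. The lymphocyte genes Cd4, Cd8a, Gzma, Gzmb and Ms4a1 were well above background in no tumour.

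Large differences off chromosome 13 among genes whose types did not overlap took in functions outside these families. Higher in R-type tumours, besides Mgarp, Mdk and Sfrp2, were Plagl1, an imprinted zinc finger factor (2.72, adjusted p 2.33e-05, at 1.14 to 2.47 against −1.39 to −0.51), and the muscle ring finger gene Trim55 (2.55, adjusted p 0.0115). Rgs13, a regulator of G protein signals (2.07, adjusted p 0.00308), Rflna (2.07, adjusted p 0.000277) and the ubiquitin ligase gene Hecw2 (1.97, adjusted p 5.29e-05) were also higher. Near Plagl1 on chromosome 10, Phactr2 (0.63, adjusted p 0.000225) and Fbxo30 (0.41, adjusted p 0.00294) were also higher, while Sf3b5 (0.06), Utrn (−0.13) and Fuca2 (0.12), which lie between or beside them, did not pass.

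Lower in R-type tumours were Slc5a7, the choline transporter of cholinergic neurons (−2.49, SE 0.265, adjusted p 0.000134), at −3.39 to −1.51 against −0.24 to 0.61, and Chrna10, a subunit of the nicotinic acetylcholine receptor (−2.32, adjusted p 0.00823). Lrba, a protein of vesicle traffic (−2.53, adjusted p 0.00121), Adamtsl1, a matrix protein (−2.40, adjusted p 0.00187), and Frmd5 (−2.86, adjusted p 0.00323, well above background in 5 R-type tumours) were lower too. Dgkb, Mab21l2, Bend7 and Cdkl2 passed as well (adjusted p 5.42e-05, 0.00843, 0.000416 and 0.0009) but were well above background in only 4, 3, 1 and 1 R-type tumours, so no size is given, and another probe of Cdkl2 stood at 0.12. On chromosome 13 the pituitary hormone gene Prl was lower (adjusted p 0.0039, well above background in 4 R-type tumours). Of the 10 anterior pituitary markers on the array 4 were well above background in all S-type and 2 in all R-type tumours. In no tumour were 5 of them, Gh among them. Of the 5 tested markers 3 differences lay above 0 and 2 below, with a median of 0.13, and only Prl passed. Their mean, Prl included, was −4.065 to −3.213 in R-type and −3.219 to −2.224 in S-type tumours.

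On chromosome 6 a pair of S-type tumours stood apart. The median deviation of its genes from each gene's median over the 12 tumours was 0.32 in MB3 and −0.35 in MB6, both S-type, against −0.16 to 0.10 in the other 10. Of its 673 tested genes 43 were higher (6.39%) and 31 lower (4.61%), together 11%. Of all tested genes 21.0% passed in either direction, and of those with a symbol 12.3% were higher and 8.02% lower. The named genes on chromosome 6 are Tpi1, Igf2bp3 and Lmo3. Without MB3 and MB6, an alternative chosen after seeing the data, Tpi1 stood at 0.75 (adjusted p 0.00248), Igf2bp3 at 4.0 (adjusted p 0.00248) and Lmo3, a transcription cofactor gene, at 2.26 (adjusted p 0.0674, from 2.15 and 0.0339 with all tumours).

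**Figure D5:**
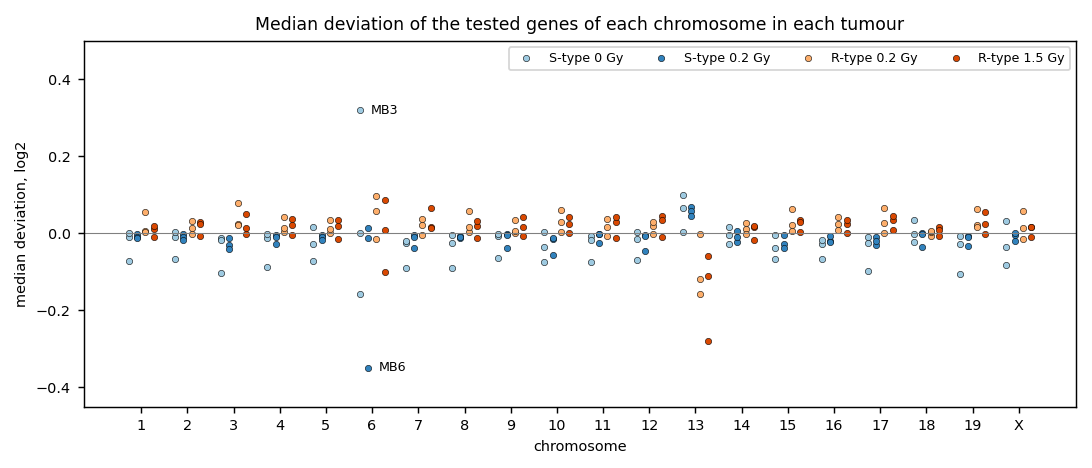
Median, over the tested genes of each chromosome, of the deviation from each gene's own median over the 12 tumours (log2). Each point is a tumour, coloured by type and dose. Chromosome 6 parts MB3 (0.32) and MB6 (−0.35) from the rest, and chromosome 13 lies lower in R-type than in S-type tumours.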

How the data were processed

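Total RNA of 15 samples was hybridised to 1-colour Agilent mouse arrays, 1 array a sample. The scanner files hold each spot's intensity, and the deposited processed signal was already corrected for background, per the file headers, by the scanner software (Agilent Feature Extraction 9.5.1 in the submitters' processing notes). The deposited value table is on a log2 scale and its making is not given in the sources used here. Its differences between arrays correlated at 0.99992 or more with those used here, and it served as an alternative.

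From the intensities, log2 of the processed signal less the 75th percentile of its array was computed. Of 41174 probes 76 with outlier flags were left out. RefSeq accessions, matched to GRCm38.p6, named 24792 probes and 17154 genes. The probe with the highest mean stood for a gene, and the test took in the 21661 genes or unnamed probes that 3 or more arrays measured well above background (13424 had a symbol). A gene measured above background in no tumour of a type is given as a bound: the higher type's mean against the lowest signal well above background on the other type's arrays, or the probe's own where that is higher. limma 3.58.1 (lmFit, eBayes) in R 4.3.3 was fitted to 5 groups of 3 arrays, with Benjamini-Hochberg adjustment over all 21661, two-sided. Python 3.11.15 (pandas 2.3.3, numpy 2.4.6, matplotlib 3.10.9) did the rest. The fit was tested on simulated data.

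The comparison and all gene lists were chosen with earlier results of these data known. The 24 families described, of 72 counted, the neighbours of genes, the motif searches and a correction of the chaperone list were chosen after values were seen. Named genes are the 12 highest and 12 lowest off chromosome 13 among genes that passed, did not overlap between types and were well above background throughout the higher type, up to 6 passing members of each family by adjusted p, members needed as not passing, and 17 key members. Some of these genes are not reported here. Alternatives covered scaling, background correction, filter, probe rule, groups in the fit, slide as a block, the deposited table and each tumour left out.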

Additional observations from a re-analysis of the deposited data

Results flagged for a closer look

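In 280 sets of 6 values (140 named genes in each type), 15 held a tumour whose gap to its nearest neighbour was too large a share of their range by Dixon's test (5.36%). Chance gives about 1 in 20. Among S-type tumours MB6 was low for Rflna (−1.13, others −0.13 to 0.48) and Tpi1 (2.97, others 3.54 to 3.84) and high for Ago4 (−1.42, others −2.53 to −2.13). MB3 was high for Igf2bp3 (−3.70, others −8.25 to −7.09) and Efnb3 (1.83, others 1.22 to 1.43). MB2 was low for Rrp9 (0.37, others 0.67 to 0.81) and Ung (2.17, others 2.64 to 2.83) and high for Dnaja4 (−1.14, others −1.57 to −1.42). MB5 was high for Dnajc15 (3.06, others 1.99 to 2.29).

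Among R-type tumours MB9 was low for Tgfb2 (−0.81, others −0.24 to 0.02) and Alk (−4.29, others −3.84 to −3.58). MB11 was high for Igfbp7 (5.09, others 4.5 to 4.72) and Cplx2 (3.81, others 3.09 to 3.36) and low for Syt4 (−6.40, others −4.16 to −2.89). MB7 was low for Gins2 (1.70, others 1.94 to 2.04). In Ago4, Tgfb2, Tpi1, Dnaja4, Ung, Efnb3, Rflna and Igfbp7 the types did not overlap even with these tumours.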

How the results depend on the processing

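Of 140 named genes 137 passed, and 74 passed under every alternative run. With no scaling 44 no longer passed and 2 changed sign without passing, Ncl (−0.015) and Drosha (−0.048). With the slide as a block 18 no longer passed, with median scaling or no filter 14 each, and with dose ignored or the 12 tumours only 13 each. Dicer1 changed sign with the mean over its probes (0.045). The number of genes that passed was 3037 (without MB9) to 5289 (without MB3) when 1 tumour was left out, against 4559, and 1653 to 2931 off chromosome 13, against 2538. With the 12 tumours only it was 3340, and 1800 off chromosome 13. In that fit 56 ribosomal protein genes were higher (against 70), 17 translation factors (27), 5 ribosome assembly genes (10) and 7 DNA replication genes (12). At 0.2 Gy, where 1030 passed, the number was 648 with median scaling, 2673 with no scaling, 538 with no filter on dim probes, 407 with the 12 tumours only, 453 with the slide as a block and 295 to 1405 with 1 tumour left out, fewest without MB9. Between R-type at 1.5 Gy and S-type at 0 Gy, where 2218 passed, it was 1393 with no filter, 1358 with the 12 tumours only and 1132 (without MB11) to 2432. The causes were not tested. Among families with no lower gene, 1 was lower in the insulin-like growth factor system and in DNA replication without MB2, in hypoxia targets without MB1 and in the midkine list without MB4. Without MB8 4 translation factors were lower, and without MB2 4 granule precursor factors were higher. No paired analysis was possible because the 12 tumours carry 12 different numbers, which no groups share. Genes not well above background in a type have only a bound there, and 3 arrays a group limit the precision.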

Other observations

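Histone genes, most of them in a cluster on chromosome 13, were higher in R-type tumours in 13 of 27 cases (48.1%) and lower in 1 (3.7%). Of all tested genes 11% were higher and 10.1% lower. The median of the histone genes was 0.32, and 21 of the 27 lie on chromosome 13, where the median of all 483 tested genes was −0.29. The linker histone genes H1f1 (1.17, SE 0.204, adjusted p 0.00272 with limma) and H1f3 (1.19, SE 0.216, adjusted p 0.00332) and the core histone genes H2bc1 (0.86, SE 0.1, adjusted p 0.000261), H2bc12 (0.88, SE 0.111, adjusted p 0.000466) and H2bc14 (0.87, SE 0.112, adjusted p 0.000501) were higher without overlap, all on chromosome 13. H2bc23, on the same chromosome, was lower (−1.09, SE 0.317, adjusted p 0.0311). These genes were picked with their values known, and genes of a cluster this alike in sequence may share a probe's signal. The list mean was 0.09 to 0.89 higher within slides. Leaving out 1 tumour gave 10 (without MB10 or MB11) to 16 (without MB3) higher histone genes, and it was 8 with the slide as a block and 7 with no scaling, where 3 were lower.

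Genes of mitochondrial ribosomes were higher in 17 of 78 cases (21.8%, against 11% of all tested genes) and lower in 1 (median 0.13). The number higher was 6 without MB9, 10 without MB2 or MB10, 11 without MB4, MB5, MB6 or MB11 and 26 without MB3. It was 8 with median scaling, with no filter or with the slide as a block, 9 with the 12 tumours only, and with no scaling 1 was higher and 6 lower. Genes of the proteasome were higher in 7 of 47 cases and lower in none, with a median of 0.12. The share higher was 14.9%, against 11% of all tested genes, 13.1% and 19.3% in the 2 brightest groups given above. At an unadjusted p under 0.05 limma gave none lower either. The number higher was 2 without MB9, 3 or 4 without any other 1 tumour except MB3 and MB12, and 13 without either of those. It was 2 with median scaling or no filter, 3 with the 12 tumours only or with the slide as a block and 4 with dose ignored, and with no scaling 1 was higher and 6 lower.

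Of the choroid plexus markers 1 of 10, Kl, was lower (10%, against 10.1% of all tested genes) and none was higher, with a median of −0.79 and a range of −1.48 to 0.69 within slides. At an unadjusted p under 0.05 limma gave 3 lower and 1 higher. Without MB1 5 were lower, and without MB2 or MB6 1 was higher. The list mean was −0.82 in MB2 and −2.29 in MB3, both S-type, and −4.01 to −3.22 in the other 10 tumours.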
